A study of Mus musculus with 12 samples.

Results

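The genes described here are 34 genes of the ATF4 and unfolded protein stress programmes, followed across tumours of mouse colorectal cancer that grew in healthy or fatty livers. They were chosen by name. Of these, 18 belong to the ATF4 and amino acid arm and 16 to the endoplasmic reticulum arm, and the arms are kept apart below. A row of the array carrying a member's symbol alone was found for 33 of the 34, among 22180 genes in all. Pdia4 shares its row with another symbol and was not analysed. All 33 passed the filter on low values, which kept 13286 genes: a log2 value above 4.93, the median over every row and array, on 3 or more arrays.

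RNA came from tumour tissue of 4 groups, each described by the submitters as 3 mice, with 1 array for each labelled biological replicate. The groups were tumours in healthy liver under vehicle, in healthy liver under Anti-VEGF, in fatty liver under vehicle and in fatty liver under Anti-VEGF, an antiangiogenic treatment against vascular endothelial growth factor. Colorectal cancer cells had been injected into the livers in every group. The labels used here do not name the tumour line, the strain, sex and age of the mice, the diet that made the liver fatty or the doses. Differences between tumours in fatty and in healthy liver, differences with treatment, and the dependence of the treatment difference on the liver are the comparisons the design allows.

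ATF4 is a transcription factor that cells translate when the initiation factor eIF2 is phosphorylated, for example when amino acids run short or when proteins misfold in the endoplasmic reticulum. Its known targets make serine, glycine and asparagine, bring amino acids into the cell, and feed back on the stress signal. The unfolded protein response has sensors in the endoplasmic reticulum membrane, encoded by Ern1 (IRE1), Eif2ak3 (PERK) and Atf6, which raise chaperones, folding enzymes and the disposal of misfolded proteins. PERK is one of the kinases that switch on ATF4, so the arms are linked. ATF4 itself is controlled mainly at translation, which an RNA measurement does not show.

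Upstream sequences of members are shown because genes with the same known stress element moved in different directions below. Of the 34 members, 30 have at least 1 promoter in the RefSeq table (build GRCm38.p6), each of 300 bases from 250 before to 50 after a listed start. Both strands were searched for CARE, the element bound by ATF4 with C/EBP partners (TGATGNAAN), for ERSE, the endoplasmic reticulum stress element (CCAAT, any 9 bases, CCACG), for ERSE-II (ATTGG, any 1 base, CCACG) and for UPRE (TGACGTGG). No match printed here overlaps another. The 250 bases before the start follow, 5′ to 3′ on the gene's strand, with matches to any of these motifs in capitals.
Asns, chr6:7693210-7693459, minus strand: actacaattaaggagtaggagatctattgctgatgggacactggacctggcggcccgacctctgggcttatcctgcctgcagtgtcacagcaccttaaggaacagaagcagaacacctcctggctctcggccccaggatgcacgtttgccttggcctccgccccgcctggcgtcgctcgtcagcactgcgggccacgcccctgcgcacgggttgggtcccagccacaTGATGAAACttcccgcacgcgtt
Slc7a11, chr3:50443614-50443863, minus strand: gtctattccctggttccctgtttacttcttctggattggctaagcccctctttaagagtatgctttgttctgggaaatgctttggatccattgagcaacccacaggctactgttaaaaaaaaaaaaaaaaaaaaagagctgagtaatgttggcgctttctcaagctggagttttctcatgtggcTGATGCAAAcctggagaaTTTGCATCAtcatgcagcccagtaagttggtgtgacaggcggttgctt
Chac1, chr2:119350992-119351241, plus strand: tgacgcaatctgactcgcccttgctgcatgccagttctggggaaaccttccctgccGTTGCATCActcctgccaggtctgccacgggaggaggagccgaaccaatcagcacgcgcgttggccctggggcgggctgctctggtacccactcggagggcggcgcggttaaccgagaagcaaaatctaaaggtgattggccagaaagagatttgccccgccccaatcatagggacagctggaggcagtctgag
Hspa5, chr2:34771840-34772089, plus strand: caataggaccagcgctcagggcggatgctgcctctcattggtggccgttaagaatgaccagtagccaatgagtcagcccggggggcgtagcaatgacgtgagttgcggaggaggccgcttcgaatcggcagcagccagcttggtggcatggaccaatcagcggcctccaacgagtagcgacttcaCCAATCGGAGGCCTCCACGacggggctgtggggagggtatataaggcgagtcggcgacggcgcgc
Pdia6, chr12:17266339-17266588, plus strand: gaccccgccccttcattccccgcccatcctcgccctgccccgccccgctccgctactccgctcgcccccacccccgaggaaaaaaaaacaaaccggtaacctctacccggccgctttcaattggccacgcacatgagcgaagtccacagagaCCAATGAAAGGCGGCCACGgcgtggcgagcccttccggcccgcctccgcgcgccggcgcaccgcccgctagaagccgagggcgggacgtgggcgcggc

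CARE matched in promoters of 4 of 16 genes of the ATF4 arm (Asns, Slc7a11, Chac1 and Trib3) and of 1 of 14 of the endoplasmic reticulum arm (Herpud1), and in 3.95% of all 32851 promoters. Slc7a11 had 2 matches, at positions -66 to -58 and -48 to -40 from the start, and Asns 1, at -23 to -15. ERSE matched in 5 of the 14 endoplasmic reticulum genes (Calr, Creld2, Hsp90b1, Hspa5 and Pdia6), in 0 of the 16 ATF4 arm genes and in 0.119% of all promoters. ERSE-II matched in Herpud1 and in 0.0365% of all promoters, and UPRE in no member and in 0.676% of all. A match describes letters in this window and is not a measured site.

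Several arrays stood apart, and others nearly matched. Over all tested genes the difference had an SD of 0.148 to 0.163 between vehicle arrays 1 and 3 of each liver and among the 3 healthy liver Anti-VEGF arrays, and 0.391 to 0.636 for the other 7 pairs within groups. Whether such near matches are separate animals cannot be read from the values, and p-values measure only the spread between arrays. Xist, the RNA of the inactive X chromosome, was high (8.10 to 10.58) on vehicle arrays 1 and 3 of both livers and at most 4.32 on the other 8 arrays. Healthy liver vehicle array 2 and fatty liver Anti-VEGF array 3 lay nearest the other liver in most called genes. As for the tissue label, Epcam, Krt19, Krt20, Cldn4, Cldn7 and Vil1 lay below the limit on all 12 arrays, while Krt8 (9.12 to 10.82), Krt18 and Cdh1 lay above it. Albumin, the defining hepatocyte marker, was at most 4.07. In bulk tissue, fewer cells of a type cannot be told apart from less RNA per cell.

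Tumours in fatty liver held less RNA for the amino acid synthesis enzymes of the ATF4 arm and more for its transcription factors Cebpb and Ddit3 and for the cystine transporter Slc7a11. Under vehicle, 9 of the 18 ATF4 arm genes were lower in fatty than in healthy liver and 3 were higher in limma at an adjusted p of 0.05. Under Anti-VEGF 10 were lower and 3 higher, and the 12 genes called under vehicle had the same call there. All 6 enzymes fell under both treatments, by 0.30 to 0.85 on the log2 scale under vehicle. Among all tested genes 49.6% were called under vehicle (19.2% higher, 30.4% lower) and 45.8% under Anti-VEGF (18.2% higher, 27.6% lower). The arm's shares of 66.7% and 72.2% are read against that background. The median log2 difference of the arm was -0.38 under vehicle and -0.39 under Anti-VEGF, beside -0.12 and -0.13 for all tested genes. The liver groups were fully apart for 14 of the 18 under each treatment. Under vehicle 4 were above and 10 below, beside 60.8% of all tested genes (23.6% above, 37.2% below), and under Anti-VEGF 3 were above and 11 below, beside 58.5% (21.9% above, 36.6% below).

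**Figure D1:**
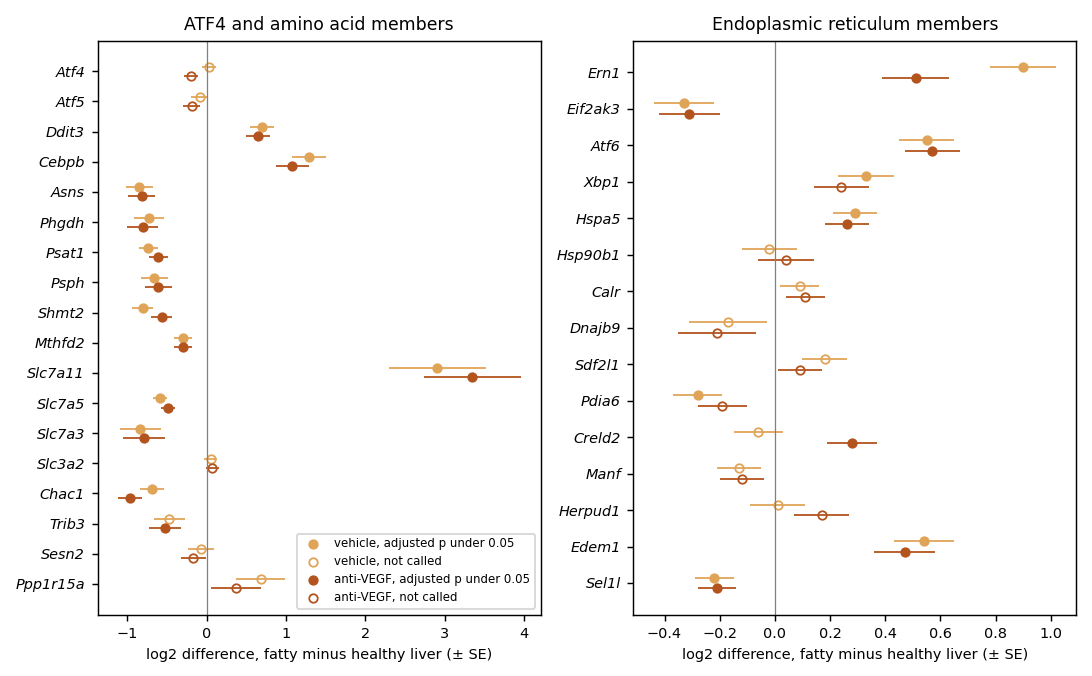
Log2 difference between fatty and healthy liver for each of the 33 measured members under vehicle and under Anti-VEGF, with bars of 1 SE from limma and filled points for an adjusted p under 0.05. The enzymes from Asns to Mthfd2 lie left of 0, Slc7a11 lies furthest right at 2.91 and 3.35, and endoplasmic reticulum members stay between -0.33 and 0.90; the 2 panels have different horizontal scales.

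Among the transcription factors, Atf4 itself did not pass in either comparison. It read 8.96, 8.92 and 8.86 in healthy liver under vehicle and 8.90, 9.03 and 8.91 in fatty liver under vehicle, and these groups overlapped (log2 difference 0.03, SE 0.09, adjusted p = 0.774). Under Anti-VEGF it was 8.94 ± 0.02 in healthy and 8.74 ± 0.15 in fatty liver (SD, n = 3, limma adjusted p = 0.0793). All fatty liver arrays there lay below all healthy ones. Atf5, a related stress factor, had differences of -0.09 under vehicle (adjusted p = 0.517) and -0.19 under Anti-VEGF (adjusted p = 0.176).

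Cebpb, which encodes a leucine zipper factor that pairs with ATF4 and also acts in myeloid cells, stood at 8.15, 8.11 and 8.02 in healthy liver under vehicle. In fatty liver under vehicle it stood at 9.18, 9.72 and 9.25, so all fatty liver arrays were above all healthy ones (difference 1.29, SE 0.21, adjusted p = 0.00119, 2.45-fold). Under Anti-VEGF its values were 7.84, 7.98 and 7.94 in healthy and 9.49, 9.0 and 8.52 in fatty liver (1.08, SE 0.21, adjusted p = 0.00294). The groups were again apart, with fatty liver array 3 the closest to healthy liver.

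Ddit3 encodes CHOP, a factor of the later, death-promoting phase of the stress response. Under vehicle it was 7.76, 7.69 and 7.83 in healthy and 8.44, 8.53 and 8.41 in fatty liver (0.70, SE 0.15, adjusted p = 0.0045). The Anti-VEGF arrays were 7.29, 7.32 and 7.34 in healthy liver against 8.38, 7.89 and 7.63 in fatty liver (0.65, SE 0.15, adjusted p = 0.00703). Neither pair of groups overlapped, and the lowest fatty liver array under Anti-VEGF lay below the vehicle arrays of healthy liver 1 to 3.

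The synthesis enzymes moved together in the opposite direction. Asns, which makes asparagine, read 10.76, 10.61 and 10.80 in healthy liver under vehicle and 10.04, 9.58 and 9.99 in fatty liver under vehicle (-0.85, SE 0.17, adjusted p = 0.0029). With Anti-VEGF it read 10.82, 10.84 and 10.81 in healthy and 9.86, 9.76 and 10.41 in fatty liver (-0.82, SE 0.17, adjusted p = 0.00381). Every fatty liver array was below every healthy liver array, although Asns and Slc7a11 both hold a CARE match in the sequences shown above and Slc7a11 moved the other way.

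Phgdh, Psat1 and Psph encode the steps of serine synthesis from a glycolytic intermediate. Phgdh was 7.72, 7.37 and 7.70 in healthy liver under vehicle and 7.21, 6.53 and 6.86 in fatty liver (-0.73, SE 0.19, adjusted p = 0.0107). Psat1 was 9.86, 9.67 and 9.76 against 9.09, 8.80 and 9.19 (-0.74, SE 0.12, adjusted p = 0.000886). Psph was 7.24, 6.89 and 7.22 against 6.62, 6.11 and 6.63 (-0.66, SE 0.17, adjusted p = 0.00971). For all 3 genes the liver groups did not overlap under vehicle, and array 2 was the lowest of the fatty liver group. Under Anti-VEGF the differences were -0.81 for Phgdh (adjusted p = 0.00765), -0.61 for Psat1 (adjusted p = 0.00228) and -0.61 for Psph (adjusted p = 0.0155). The arrays there were 7.68, 7.91 and 7.74 in healthy against 6.81, 6.79 and 7.32 in fatty liver for Phgdh, and 9.69, 9.71 and 9.65 against 8.99, 8.97 and 9.26 for Psat1. For Psph they were 6.92, 7.05 and 7.02 against 6.55, 6.08 and 6.52, again without overlap, but the Psph call ended without healthy or fatty liver Anti-VEGF array 2 (adjusted p up to 0.06).

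Shmt2, which turns serine into glycine in mitochondria, went from 11.55, 11.41 and 11.55 in healthy to 10.80, 10.51 and 10.76 in fatty liver under vehicle (-0.81, SE 0.13, adjusted p = 0.00119). Under Anti-VEGF it went from 11.41, 11.41 and 11.48 to 10.66, 10.74 and 11.19 (-0.57, SE 0.13, adjusted p = 0.00751). The fatty liver arrays were all lower, with Anti-VEGF array 3 closest to the healthy ones. Mthfd2, the next enzyme of mitochondrial one-carbon metabolism, fell least. It was 9.89, 9.82 and 9.83 against 9.59, 9.49 and 9.55 under vehicle and 9.81, 9.78 and 9.76 against 9.47, 9.26 and 9.73 under Anti-VEGF. Its difference was -0.30 under both (adjusted p = 0.036 and 0.0408), and removal of any of 9 arrays ended the call in each comparison (adjusted p up to 0.104 and 0.14).

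**Figure D2:**
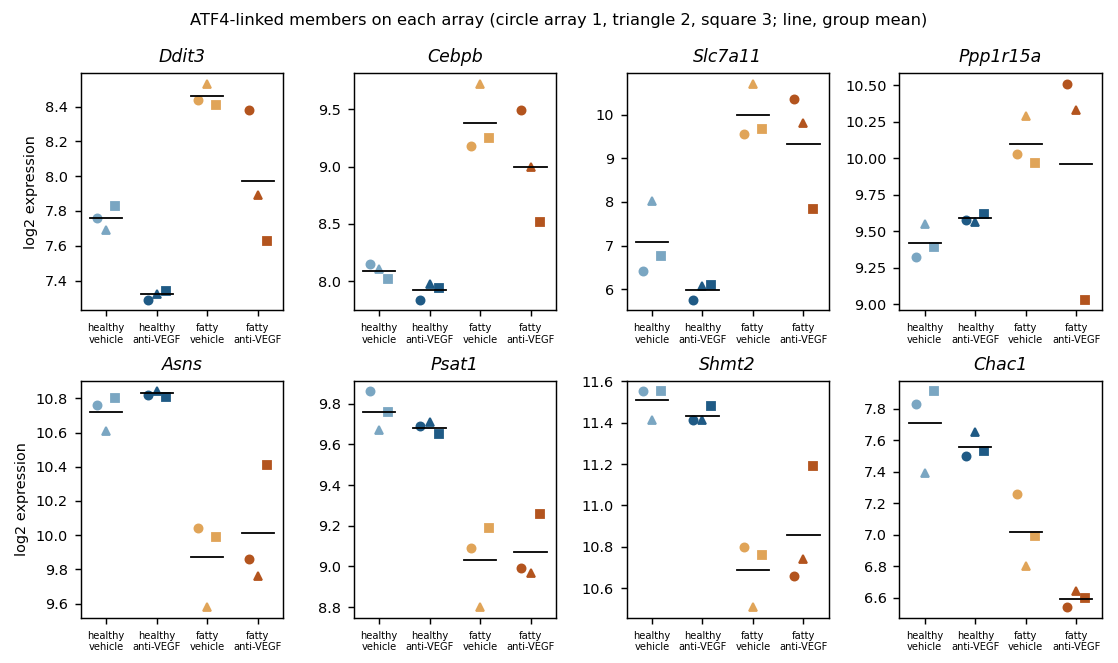
Log2 expression of 8 ATF4 arm genes on each of the 12 arrays by group, with symbols for array number and a line at the group mean; each panel has its own vertical scale, which does not start at 0. Cebpb, Ddit3 and Slc7a11 are higher on the fatty liver arrays of each treatment and Asns, Psat1, Shmt2 and Chac1 lower, with fatty liver Anti-VEGF array 3 often nearest the healthy liver values.

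The amino acid transporters split. Slc7a11, the cystine importer that feeds glutathione synthesis, had the largest difference of any member. Under vehicle it read 6.41, 8.03 and 6.76 in healthy and 9.56, 10.70 and 9.67 in fatty liver (2.91, SE 0.61, adjusted p = 0.00389, 7.53-fold). Under Anti-VEGF it read 5.76, 6.07 and 6.10 in healthy and 10.35, 9.81 and 7.84 in fatty liver (3.35, SE 0.61, adjusted p = 0.00193, 10.2-fold). Without fatty liver Anti-VEGF array 3 the log2 difference was 4.10, more than 1.5 times that fold. Groups did not overlap within a treatment, yet healthy liver vehicle array 2 (8.03) lay above fatty liver Anti-VEGF array 3 (7.84). A second row for Slc7a11, with a mean of 4.32 below the limit, differed in the same direction, by 1.93 and 1.73.

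Slc3a2, the heavy chain that carries Slc7a11 or Slc7a5 to the membrane, did not pass in either comparison. Its values ran from 11.82 to 11.97 in healthy and from 11.92 upward in fatty liver under vehicle, with overlap (0.05, SE 0.08, adjusted p = 0.625), and it differed by 0.07 under Anti-VEGF (adjusted p = 0.51). Slc7a5, the importer of leucine and other large neutral amino acids, fell from 11.98, 11.93 and 11.98 in healthy to 11.45, 11.26 and 11.42 in fatty liver under vehicle (-0.59, SE 0.09, adjusted p = 0.000725). Its Anti-VEGF arrays were 11.85, 11.85 and 11.84 against 11.21, 11.36 and 11.51 (-0.49, SE 0.09, adjusted p = 0.00182), so the heavy chain and the 2 light chains had 3 different patterns between livers.

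Slc7a3, an importer of arginine and lysine, was near the limit in fatty liver. It read 6.12, 5.44 and 6.24 against 5.25, 5.10 and 4.93 under vehicle (-0.84, SE 0.26, adjusted p = 0.0208) and 5.97, 5.69 and 5.89 against 4.99, 4.59 and 5.60 under Anti-VEGF (-0.79, SE 0.26, adjusted p = 0.0289). A difference measured from values this low can understate the change. The vehicle call was lost on leaving out array 1 or 3 of healthy liver or array 2 or 3 of fatty liver (adjusted p up to 0.083). The Anti-VEGF call ended without array 1 or 3 of healthy liver or 1 or 2 of fatty liver (up to 0.11).

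Of the stress effectors, Chac1, which degrades glutathione, was lower in fatty liver. Under vehicle it was 7.83, 7.39 and 7.91 in healthy and 7.26, 6.80 and 6.99 in fatty liver (-0.69, SE 0.15, adjusted p = 0.00397). With Anti-VEGF it stood at 7.5, 7.65 and 7.53 against 6.54, 6.64 and 6.60 (-0.97, SE 0.15, adjusted p = 0.000653). The groups were apart in both, and fatty liver Anti-VEGF array 3 lay with its group here. Chac1 and Slc7a11, which spend and supply glutathione, thus differed in opposite directions on the same arrays.

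Trib3, a pseudokinase that restrains ATF4, was 7.72, 7.55 and 7.98 against 7.52, 6.98 and 7.35 under vehicle (-0.47, SE 0.20, adjusted p = 0.0687). Its Anti-VEGF values were 7.34, 7.54 and 7.52 against 7.36, 6.67 and 6.80 (-0.53, SE 0.20, adjusted p = 0.0485). Fatty liver array 1 lay among the healthy liver arrays there, and the call was lost on removal of any of 9 arrays (adjusted p up to 0.169). Sesn2, a sensor of leucine, did not pass (-0.07, adjusted p = 0.745 under vehicle and -0.17, adjusted p = 0.406 under Anti-VEGF).

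Ppp1r15a encodes GADD34, the subunit that directs dephosphorylation of eIF2. It was 9.32, 9.55 and 9.39 in healthy and 10.03, 10.29 and 9.97 in fatty liver under vehicle, without overlap, but did not pass (0.68, SE 0.31, adjusted p = 0.0873). Under Anti-VEGF fatty liver arrays 1 and 2 read 10.51 and 10.33 and array 3 read 9.03, below all healthy liver arrays (0.37, SE 0.31, adjusted p = 0.341). Without that array 3 it was called under both treatments, with adjusted p = 0.000629 under vehicle and 0.00038 under Anti-VEGF, the lowest values when 1 array was left out.

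In the endoplasmic reticulum arm, genes were called in both directions. Under vehicle 5 of its 15 measured genes were higher in fatty liver and 3 lower. Under Anti-VEGF 5 were higher and 2 lower, and 6 genes had the same call in both: Ern1, Atf6, Hspa5 and Edem1 higher, Eif2ak3 and Sel1l lower. The shares of 53.3% and 46.7% lie near the 49.6% and 45.8% of all tested genes, so the counts in either direction together do not set the arm apart. Of all tested genes 19.2% were higher and 30.4% lower under vehicle, and 18.2% and 27.6% under Anti-VEGF. Lower calls thus outnumbered higher ones among all tested genes but not in the arm. The arm's median log2 difference was 0.01 under vehicle and 0.11 under Anti-VEGF, beside -0.12 and -0.13 for all tested genes.

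The 3 sensors did not move alike. Ern1, encoding IRE1, read 8.63, 8.70 and 8.55 in healthy and 9.49, 9.60 and 9.49 in fatty liver under vehicle (0.90, SE 0.12, adjusted p = 0.000388, 1.86-fold). Under Anti-VEGF it read 8.61, 8.57 and 8.62 against 9.38, 9.11 and 8.84 (0.51, SE 0.12, adjusted p = 0.007). All fatty liver arrays exceeded all healthy ones, and the difference under Anti-VEGF was the smaller, though the interaction did not pass (-0.39, SE 0.17, adjusted p = 0.964).

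Atf6, a membrane-bound factor released by cleavage, rose from 9.71, 9.88 and 9.75 to 10.25, 10.48 and 10.26 under vehicle (0.55, SE 0.10, adjusted p = 0.00207). Under Anti-VEGF it rose from 9.64, 9.71 and 9.70 to 10.37, 10.32 and 10.07 (0.57, SE 0.10, adjusted p = 0.00162). Eif2ak3, the PERK gene, was lower in fatty liver: 8.11, 7.78 and 8.12 against 7.75, 7.60 and 7.67 under vehicle (-0.33, SE 0.11, adjusted p = 0.032). Under Anti-VEGF it was 7.97, 8.02 and 8.0 against 7.59, 7.58 and 7.88 (-0.31, SE 0.11, adjusted p = 0.0433). The groups of both genes were separate, but the Eif2ak3 call ended on removal of any of 4 arrays under vehicle and any of 8 under Anti-VEGF (adjusted p up to 0.117 and 0.134).

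**Figure D3:**
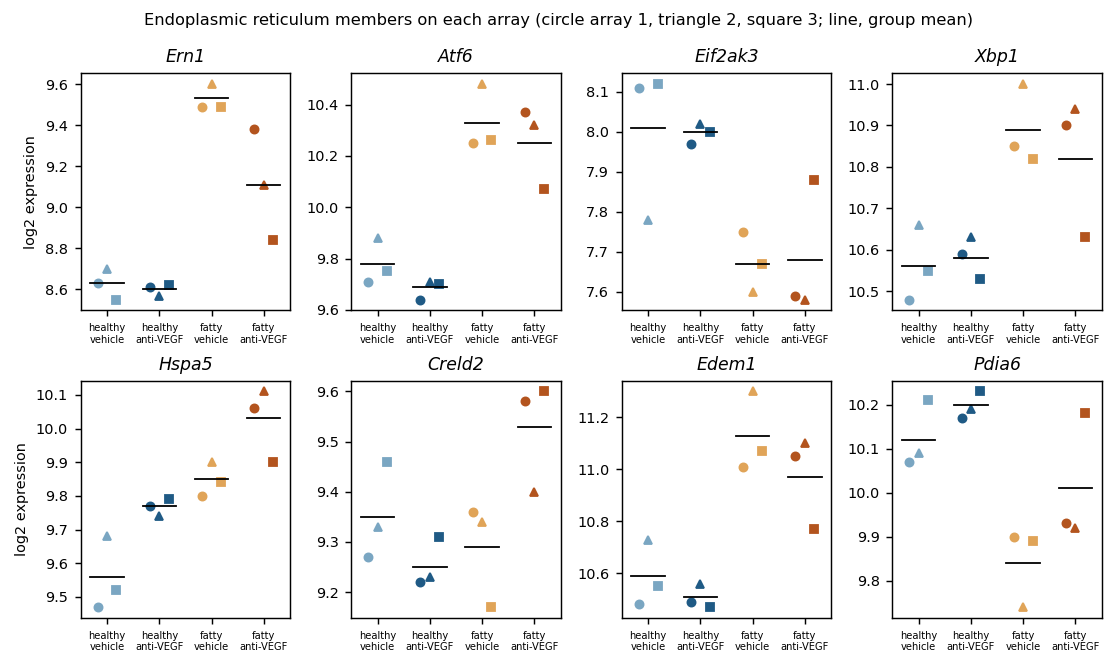
Log2 expression of 8 endoplasmic reticulum arm genes on each of the 12 arrays by group, with symbols for array number and a line at the group mean; each panel has its own vertical scale, which does not start at 0. Ern1, Atf6 and Edem1 are higher on every fatty liver array than on every healthy liver array of the same treatment, and Eif2ak3 is lower.

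Xbp1, whose RNA is spliced by IRE1 to encode a factor for folding genes, was 10.48, 10.66 and 10.55 against 10.85, 11.00 and 10.82 under vehicle (0.33, SE 0.10, adjusted p = 0.018). The Anti-VEGF values were 10.59, 10.63 and 10.53 against 10.90, 10.94 and 10.63 (0.24, SE 0.10, adjusted p = 0.0658). The arrays did not overlap in either, and splicing was not measured by these values.

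Hspa5, encoding the master chaperone BiP, was 9.47, 9.68 and 9.52 in healthy and 9.80, 9.90 and 9.84 in fatty liver under vehicle (0.29, SE 0.08, adjusted p = 0.0152, 1.22-fold). Under Anti-VEGF it was 9.77, 9.74 and 9.79 against 10.06, 10.11 and 9.90 (0.26, SE 0.08, adjusted p = 0.028). Hsp90b1, the chaperone GRP94, and Calr, the calcium-binding lectin calreticulin, did not pass. Their differences were -0.02 and 0.09 under vehicle (adjusted p = 0.891 and 0.347) and 0.04 and 0.11 under Anti-VEGF (adjusted p = 0.728 and 0.221). Of the 5 genes with an ERSE match, Hspa5 was called higher under both treatments, Creld2 higher under Anti-VEGF, Pdia6 lower under vehicle, and Calr and Hsp90b1 in neither.

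Pdia6, a disulfide isomerase, read 10.07, 10.09 and 10.21 against 9.90, 9.74 and 9.89 under vehicle (-0.28, SE 0.09, adjusted p = 0.0248), and all fatty liver arrays were lower. Its Anti-VEGF values were 10.17, 10.19 and 10.23 against 9.93, 9.92 and 10.18, where array 3 met the healthy liver range (-0.19, adjusted p = 0.115). Creld2, a secreted folding factor, read 9.22, 9.23 and 9.31 against 9.58, 9.40 and 9.60 under Anti-VEGF (0.28, SE 0.09, adjusted p = 0.0278). Under vehicle its groups overlapped (-0.06, adjusted p = 0.572), and the interaction did not pass (0.34, SE 0.12, adjusted p = 0.964). Manf, another secreted stress factor, had differences of -0.13 and -0.12 (adjusted p = 0.217 and 0.271).

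Dnajb9 and Sdf2l1, cochaperones of BiP, did not pass under vehicle (-0.17 and 0.18, adjusted p = 0.345 and 0.0884) or under Anti-VEGF (-0.21 and 0.09, adjusted p = 0.247 and 0.374). Genes of the disposal of misfolded proteins diverged. Edem1, which hands glycoproteins over for degradation, was 10.48, 10.73 and 10.55 against 11.01, 11.30 and 11.07 under vehicle (0.54, SE 0.11, adjusted p = 0.00366). With Anti-VEGF it reached 10.49, 10.56 and 10.47 against 11.05, 11.10 and 10.77 (0.47, SE 0.11, adjusted p = 0.00829). The fatty liver arrays were higher throughout, and a second Edem1 row below the limit differed by 0.22 and 0.16. With the mean of both rows, Edem1 was no longer called under Anti-VEGF (0.31, adjusted p = 0.0508).

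Sel1l, the adaptor of the degradation ligase, was slightly lower in fatty liver. It read 10.30, 10.28 and 10.29 against 10.03, 10.11 and 10.07 under vehicle (-0.22, SE 0.07, adjusted p = 0.0249) and 10.29, 10.32 and 10.32 against 10.00, 10.11 and 10.20 under Anti-VEGF (-0.21, SE 0.07, adjusted p = 0.0328). Herpud1, a scaffold of the same machinery with both a CARE and an ERSE-II match, did not pass (0.01, adjusted p = 0.969 and 0.17, adjusted p = 0.195).

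The calls of Ern1, Atf6 and Edem1 (its brighter row) held when any 1 array was left out in both liver comparisons, and those of the other endoplasmic reticulum genes did not. Under vehicle, Xbp1 and Hspa5 lost theirs when array 1 or 3 of healthy or array 2 of fatty liver was left out (adjusted p up to 0.0712 and 0.0665). Pdia6 lost its call without healthy liver array 3 or fatty liver array 2 (up to 0.0939), and Sel1l without array 1 or 3 of either liver (up to 0.0755). The 4 vehicle arrays whose removal ended the Eif2ak3 call were 1 and 3 of healthy and 2 and 3 of fatty liver. Under Anti-VEGF, Hspa5 and Sel1l lost theirs without any 1 healthy liver array or fatty liver array 1 or 2 (up to 0.0927 and 0.0903), and Creld2 without any 1 healthy liver array or fatty liver array 1 or 3 (up to 0.0842).

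The calls also rested on counting nearly alike arrays separately. With those arrays averaged, which leaves 8 samples and 1 for healthy liver under Anti-VEGF, 0 members of either arm passed in limma in any comparison. The adjusted p of the genes called before then ran from 0.0527 to 0.302 under vehicle and from 0.0794 to 0.416 under Anti-VEGF, and 721 and 510 of all tested genes passed. Leaving out the 4 vehicle arrays high in Xist leaves 1 array in each vehicle group, so its spread is borrowed from the Anti-VEGF arrays; 1 member, Psat1, was then called under vehicle (lower, adjusted p = 0.0414). Taken separately, vehicle arrays 1 and 3 and vehicle array 2 gave differences between livers of 3.03 and 2.67 for Slc7a11, of -0.76 and -1.04 for Asns, and of 0.90 and 0.90 for Ern1. That split was added after the data were seen, and since these groups do not overlap it could give no other sign.

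**Figure D4:**
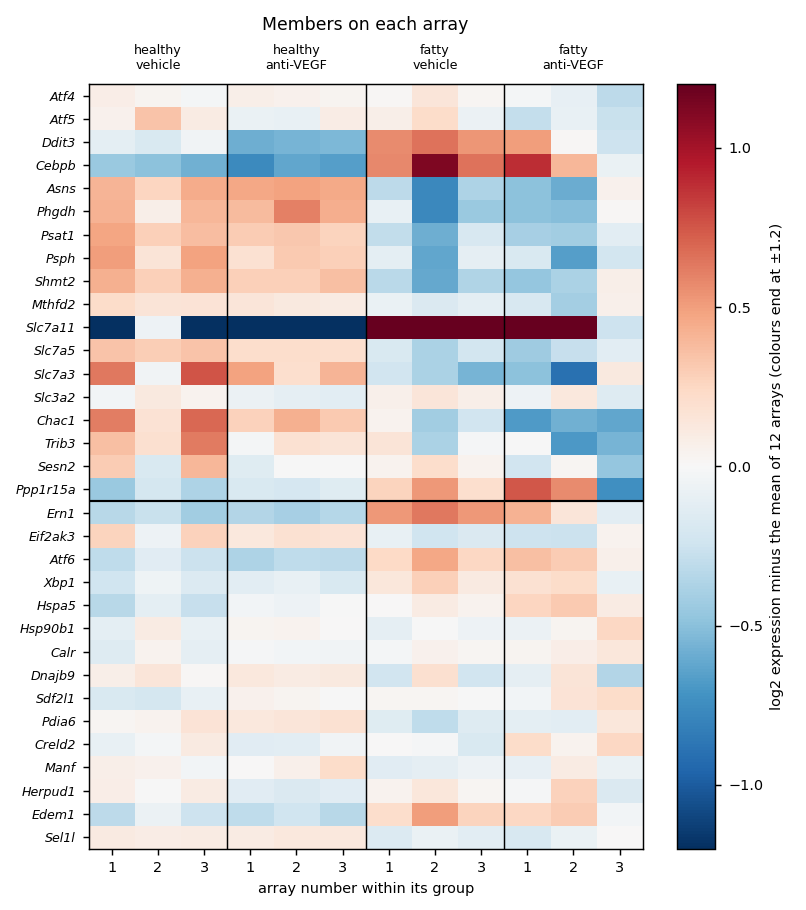
Log2 expression of the 33 measured members on each array minus the mean of the 12 arrays, with the ATF4 arm above the line and the endoplasmic reticulum arm below it; colours end at 1.2 in each direction. The block of serine and asparagine enzymes is above its mean in healthy liver and below it on most fatty liver arrays, while Cebpb, Slc7a11 and Ern1 show the reverse, and fatty liver Anti-VEGF array 3 is often closer to 0 than the rest of its group.

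Fatty liver Anti-VEGF array 3 was the array of its group nearest healthy liver for 10 of the 13 called ATF4 arm genes and 6 of the 7 called endoplasmic reticulum genes, against 71.8% of all called genes. Healthy liver vehicle array 2 was the nearest to fatty liver for 10 of 12 and 7 of 8, against 80.7% of all called genes. Immune transcripts moved with the liver comparison. The mean of 10 macrophage markers under vehicle ranged from 9.64 to 10.57 in healthy liver and from 11.57 to 11.58 in fatty liver, and 9.52 to 9.54 against 11.42 to 11.67 under Anti-VEGF; 9 of the 10 rose in each comparison. The mean of 9 T and NK cell markers was 4.91 to 5.48 against 8.1 to 8.63 under vehicle and 4.78 to 4.89 against 5.46 to 8.0 under Anti-VEGF, with array 3 the lowest at 5.46. Neutrophil markers (7 genes) averaged 4.84 to 5.38 against 7.24 to 7.99 and 4.65 to 4.75 against 5.64 to 9.55. Of the 9 T and NK cell markers, 9 were called higher under vehicle and 8 under Anti-VEGF. Of the 6 neutrophil markers tested, 3 were called higher in each comparison. Among all tested genes 19.2% and 18.2% were called higher. The part of these cells in the differences of the members was not tested.

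Of the 8 measured markers of B cells and of plasma cells, which are rich in folding enzymes, Jchain, Tnfrsf17, Ms4a1 and Pou2af1 were below the limit on all 12 arrays. Sdc1 (7.2 to 8.38), Cd79a (5.68 to 7.05) and Cd79b (5.77 to 8.73) were above it on all 12 and Mzb1 on 9. Their mean was 5.0 to 5.49 throughout, and of the 4 tested, 2 were higher and 2 lower in fatty liver under vehicle and 1 higher and 2 lower under Anti-VEGF. Their part in the results was not tested. The 12 epithelial markers averaged 5.14 to 5.41 over all arrays, but only 6 of them passed the filter on low values. Of these 6, 1 was called higher and 2 lower in fatty liver under each treatment, and Cdh1 ranged from 5.63 to 8.67. The 10 hepatocyte markers averaged 4.3 to 4.5, and 7 of them, Alb included, were below the limit everywhere. Of the 3 hepatocyte markers tested, 0 were called between livers under vehicle and 2 were lower in fatty liver under Anti-VEGF. Adipocyte markers (7 genes, with Adipoq at most 4.24) averaged 5.52 to 5.75 in healthy liver and reached 5.8 to 6.07 in fatty liver. Adipoq, Lep and Cidec were below the limit on all 12 arrays, and the brightest of the list were Fabp4 (8.87 to 10.92) and Pparg (6.63 to 10.13). Of the 4 adipocyte markers tested, 1 was called higher under vehicle, and 2 higher and 1 lower under Anti-VEGF. Endothelial markers averaged 8.82 on healthy liver vehicle array 2 and 5.48 to 5.55 on the other healthy liver arrays, and 5.86 to 7.47 in fatty liver. Fibroblast markers likewise averaged 9.64 on that array and 7.13 to 7.43 on the other healthy liver arrays, 6.78, 8.24 and 6.81 in fatty liver under vehicle, and 8.53, 7.13 and 7.58 in fatty liver under Anti-VEGF.

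No member passed between Anti-VEGF and vehicle in limma with 3 arrays per group, which does not show that none changed. In healthy liver 0 of 18 ATF4 arm genes and 0 of 15 endoplasmic reticulum genes passed, where 0.0% of all tested genes did. In fatty liver the counts were again 0 and 0, beside 0.00753% of all tested genes. The median log2 difference of the ATF4 arm was -0.12 in healthy and -0.13 in fatty liver, and that of the endoplasmic reticulum arm 0.02 and 0.03, beside 0.01 for all tested genes. Both comparisons with treatment use different arrays. In each liver Xist was high on vehicle arrays 1 and 3 and on no Anti-VEGF array, so treatment is partly confounded with that difference. A shift from it that is equal in both livers cancels in the interaction, but one that differs between livers does not.

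Ddit3 came closest in healthy liver. Its vehicle arrays (7.76, 7.69 and 7.83) were all above its Anti-VEGF arrays (7.29, 7.32 and 7.34), a difference of -0.44 (SE 0.15, adjusted p = 0.444). In fatty liver it was -0.49 (SE 0.15, adjusted p = 0.795), with vehicle arrays at 8.44, 8.53 and 8.41 and Anti-VEGF arrays at 8.38, 7.89 and 7.63, again without overlap. Such separation was common: it held for 24.8% of all tested genes in healthy and 8.06% in fatty liver, and for 9 and 5 of the 18 ATF4 arm genes. In healthy liver 2 of these 9 were above and 7 below, beside 13.1% and 11.7% of all tested genes, and in fatty liver all 5 were below, beside 3.07% above and 4.99% below among all tested genes. Endoplasmic reticulum genes were separated as well. Under Anti-VEGF, Hspa5 and Sdf2l1 lay above and Herpud1 below in healthy liver, and Hspa5, Pdia6 and Creld2 above and Ern1 below in fatty liver.

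Ern1 had the smallest unadjusted p of the members in fatty liver (0.00528 in limma). Its vehicle arrays (9.49, 9.60 and 9.49) were all above its Anti-VEGF arrays (9.38, 9.11 and 8.84), a difference of -0.42 (SE 0.12, adjusted p = 0.795). Hspa5 had differences of the other sign, 0.21 in healthy (SE 0.08, adjusted p = 0.534) and 0.18 in fatty liver (adjusted p = 0.795), which did not pass. Slc7a11 had the largest treatment differences, -1.09 in healthy (SE 0.61, adjusted p = 0.686) and -0.65 in fatty liver (SE 0.61, adjusted p = 0.83), and its outlying values came from healthy liver vehicle array 2 and fatty liver Anti-VEGF array 3. Without the latter array the fatty liver difference turned to 0.10. Limma with array weights, which gives discordant arrays less influence, called 3 ATF4 arm genes lower in healthy liver (Ddit3, Sesn2 and Chac1) and 5 in fatty liver (Ddit3, Chac1, Trib3, Psph and Mthfd2). In the endoplasmic reticulum arm it called Hspa5 higher in both, by 0.27 and 0.26 (adjusted p = 0.00476 and 0.00934). In healthy liver it also called Sdf2l1 higher (0.18) and Herpud1 lower (-0.24, adjusted p = 0.0191), and in fatty liver Dnajb9 (0.34) and Herpud1 (0.21) higher and Ern1 lower (-0.38, adjusted p = 0.00643). Over all tested genes this fit called 12.5% in healthy and 13.9% in fatty liver, and it counted the nearly alike arrays separately.

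The treatment difference was not shown to depend on the liver for any member. No interaction passed in either arm (0 of 18 and 0 of 15, beside 0.0% of all tested genes). The largest interactions in the ATF4 arm were Slc7a11 at 0.44 (adjusted p = 0.985) and Ppp1r15a at -0.31 (adjusted p = 0.98). Slc7a11 turned to -0.04 without healthy liver vehicle array 2 and to -0.07 without fatty liver Anti-VEGF array 1, and Ppp1r15a turned to 0.16 without fatty liver Anti-VEGF array 3. In the endoplasmic reticulum arm they were Ern1 at -0.39 and Creld2 at 0.34. In limma with array weights Ern1 (-0.38, adjusted p = 0.0154) and Herpud1 (0.45, adjusted p = 0.0114) were called, beside 11.1% of all tested genes.

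Other genes of the integrated stress response were mostly lower in fatty liver. Of 37 listed, 32 had a row and 29 were tested. Under vehicle 20 were lower and 3 higher in fatty liver, with a median log2 difference of -0.41, and under Anti-VEGF 17 were lower and 2 higher, with a median of -0.37. The shares called were 79.3% and 65.5%, beside 49.6% (30.4% lower) and 45.8% (27.6% lower) of all tested genes, whose medians were -0.12 and -0.13. Slc1a4, a carrier of neutral amino acids, fell by 0.93 (SE 0.14, adjusted p = 0.000725) and by 0.89 (adjusted p = 0.000778). Aldh1l2, a mitochondrial folate enzyme, read 7.66, 7.40 and 7.73 against 6.5, 5.95 and 6.51 under vehicle (-1.27, SE 0.24, adjusted p = 0.00233). Atf3, a stress-induced factor that is also active in myeloid cells, went the other way, with 9.68, 10.35 and 9.83 against 11.33, 11.67 and 11.34 under vehicle (1.49, SE 0.23, adjusted p = 0.00087) and a rise of 1.35 under Anti-VEGF (adjusted p = 0.00137).

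Further members of this list past the threshold included the glutamine carriers Slc1a5 (-0.44 under vehicle, adjusted p = 0.00504, and -0.61 under Anti-VEGF, adjusted p = 0.000981) and Slc38a2 (-0.27, adjusted p = 0.0108, and -0.56, adjusted p = 0.000235). The synthetases that load tRNA with serine and tyrosine, Sars and Yars, fell by 0.41 and 0.65 under vehicle (adjusted p = 0.00357 and 0.0018) and by 0.58 and 0.41 under Anti-VEGF (adjusted p = 0.000569 and 0.0175). The Yars call under Anti-VEGF held in 8 of the 12 limma fits with 1 array left out (adjusted p up to 0.0669). With nearly alike arrays averaged, 0 genes of this list passed in either comparison.

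Other endoplasmic reticulum folding genes were called in both directions. Of 36 listed, all had a row and 35 were tested. Under vehicle 7 were higher and 8 lower, and under Anti-VEGF 8 and 7, 42.9% in each. These shares lie near or below the 49.6% and 45.8% of all tested genes, so calls in either direction together do not set the list apart. Of all tested genes 19.2% and 18.2% were higher and 30.4% and 27.6% lower. Ero1b, an oxidase that renews disulfide isomerases, read 6.04, 6.44 and 5.78 in healthy and 7.67, 8.43 and 7.82 in fatty liver under vehicle (1.88, SE 0.22, adjusted p = 0.000223). Under Anti-VEGF it read 5.81, 5.91 and 6.18 against 7.87, 8.16 and 7.73 (1.95, SE 0.22, adjusted p = 0.000119). With nearly alike arrays averaged its adjusted p was 0.0381 and 0.0372, where healthy liver under Anti-VEGF is 1 sample and the other groups give the spread. Its relative Ero1a, an oxidase also raised by low oxygen, was lower under Anti-VEGF (-0.40, SE 0.08, adjusted p = 0.00219) and not called under vehicle (-0.08, adjusted p = 0.399). The Ero1a interaction did not pass in limma (-0.32, adjusted p = 0.964).

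Creb3, a membrane-bound factor of the secretory pathway, was higher in fatty liver under vehicle (0.52, SE 0.07, adjusted p = 0.00044) and did not pass under Anti-VEGF (adjusted p = 0.962). The Creb3 interaction did not pass in limma (-0.52, adjusted p = 0.44). Creb3l2, a relative of Creb3, fell by 1.00 under vehicle (SE 0.16, limma adjusted p = 0.000924) and by 0.72 under Anti-VEGF (adjusted p = 0.00499). Mbtps2, a protease that releases ATF6, fell by 0.66 (adjusted p = 0.00282) and by 0.47 (adjusted p = 0.0141), while Atf6 RNA itself rose. Hspa13 fell by 0.55 (adjusted p = 0.00358) and by 0.66 (adjusted p = 0.00134), and Os9, a lectin of the degradation machinery, rose by 0.28 (adjusted p = 0.0143) and by 0.41 (adjusted p = 0.00254). The Os9 call under vehicle held in 10 of the 12 limma fits with 1 array left out (adjusted p up to 0.0655). Unlike Ero1b, the genes Ero1a, Creb3, Creb3l2, Mbtps2, Hspa13 and Os9 kept no call with nearly alike arrays averaged.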

How the data were processed

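The authors deposited log2 expression values, 1 column for each of 12 biotin-labelled whole-transcript arrays; the log2 scale was read from the values. Affymetrix Expression Console is the tool listed, per the submitters' processing notes. Its version, how probes were summarised or normalized, and the build: not given in the sources used here. Column medians ran from 4.88 to 4.99, with centring and normalization unknown, and 0 columns belonged to no sample. Depth does not apply: the number of arrays limits the precision.

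Symbols came from the platform annotation: 23521 of 41345 rows had 1 symbol, 1814 several and 16010 none. A gene with more than 1 row (1082 genes) was taken from its brightest row on average. All 12 arrays entered 1 limma model (3.58.1, R 4.3.3) with a mean per group; 5 contrasts were tested, with Benjamini-Hochberg adjustment over 13286 genes and errors as moderated standard errors. The fit was tested on simulated data with independent noise on every array. Those data held no nearly alike or outlying arrays, so the test does not show how often calls are false here.

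The members, lists and tests were chosen with earlier results of these data known. All members were named; other pathway genes were named by the 4 smallest p per list and comparison among those called. Arrays of one number deviated together in every pair for the vehicle groups alone (correlations 0.536, 0.701 and 0.549). Arrays 1 and 3 correlated as much across numbers (0.553 and 0.574), so the values show arrays 1 and 3 apart from array 2 rather than a pairing by number; with the replicate block, all 12 and 8 members called between livers under vehicle stayed called. Alternatives were filters, quantile normalization, row averaging, averaged arrays, array weights, smaller fits and arrays left out.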

Additional observations from a re-analysis of the deposited data

How the results depend on the processing

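Of the 40 member results called, 39 have groups that do not overlap, so leaving out or averaging arrays cannot turn their sign. With nearly alike arrays averaged, 0 ATF4 arm and 0 endoplasmic reticulum genes were called between livers under either treatment, against 721 (vehicle) and 510 (Anti-VEGF) of all tested genes, and 0 genes with treatment in fatty liver. When the 4 Xist-high vehicle arrays were removed, which leaves 1 array in each vehicle group with the spread taken from the Anti-VEGF groups, the counts were 1 and 0 under vehicle, 3 endoplasmic reticulum genes under Anti-VEGF, and over all genes 1057 between livers under vehicle, 754 and 0 with treatment in healthy and fatty liver and 19 for the interaction. Fits of only the 2 groups compared called 3 endoplasmic reticulum genes (20.0%) between livers under Anti-VEGF, beside 5108 (38.4%) of all genes. The fit without the Xist-high vehicle arrays called as many of all genes in that comparison. With treatment, fits of only the 2 groups called 47 and 0 of all genes in healthy and fatty liver. Array weights called 3 ATF4 arm and 3 endoplasmic reticulum genes with treatment in healthy liver, 5 and 4 in fatty liver, and 12 endoplasmic reticulum genes between livers under Anti-VEGF. They called 2 endoplasmic reticulum interactions, and over all genes 1661, 1848, 9884 and 1477 in those comparisons. They also turned the fatty liver treatment differences of Dnajb9 (-0.01 to 0.34) and Herpud1 (-0.04 to 0.21). Between livers under vehicle they added calls for Sesn2, Trib3 and Dnajb9 (lower) and for Ppp1r15a, Calr and Sdf2l1 (higher). Between livers under Anti-VEGF they added Atf4 and Pdia6 (lower) and Ppp1r15a, Slc3a2, Calr, Herpud1, Sdf2l1 and Xbp1 (higher). Of all tested genes they called 71.1% and 74.4% between livers under vehicle and under Anti-VEGF. A stricter filter called 2 of all genes with treatment in healthy liver. Without healthy liver vehicle array 2 and fatty liver Anti-VEGF array 3 together the all-gene counts were 39 and 0 with treatment and 1 for the interaction. With the replicate block, 12 ATF4 arm (66.7%) and 8 endoplasmic reticulum genes (53.3%) were called under vehicle, beside 6671 (50.2%) of all genes. No called member lost its call there, and 0 of all genes were called with treatment in fatty liver. Leaving out 1 array at a time gave 3 to 9 endoplasmic reticulum genes under vehicle and 3 to 9 under Anti-VEGF, and 10 to 13 and 9 to 13 ATF4 arm genes. Of all tested genes it gave 4689 to 7337 under vehicle and 4274 to 7475 under Anti-VEGF. With treatment it gave 0 to 1 ATF4 arm genes in fatty liver, and 0 to 41 and 0 to 11 of all genes in healthy and fatty liver. The cause of these shifts was not tested, except that averaging and removal leave fewer samples. Signal limits Slc7a3 and the second rows of Slc7a11 and Edem1, which lie near or below the limit.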
